A study of Homo sapiens with 4 samples.

Results

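The NMDA receptor genes were followed across 4 RNA-Seq libraries of HGC-27, an established gastric carcinoma cell line. The group held 8 genes of the 63568 gene identifiers in the count tables, namely GRIN1, GRIN2A, GRIN2B, GRIN2C, GRIN2D, GRIN3A, GRIN3B and GRINA, matched by symbol. Of these 8, 6 passed a filter on low counts that 21932 genes of the whole series passed, and GRIN2A and GRIN2B did not. The family was selected on the difference of GRIN3A between USP47 shRNA and control shRNA in these same libraries, so the values of its members in that comparison are given as a description, with no test.

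The study asked which transcripts change when USP47, a deubiquitinase, is knocked down in gastric cancer cells. Both groups were HGC-27 cells infected with lentivirus, carrying a scrambled control shRNA in 2 libraries and an shRNA against USP47 in 2 libraries, and polyA RNA was sequenced. All libraries came from this 1 cell line, no uninfected cells were used here, and neither the labels nor the methods state whether the 2 knockdown libraries carried the same shRNA. The submitters call the libraries biological duplicates while the methods speak of triplicates. A p-value given here measures only the spread between these libraries.

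NMDA receptors are glutamate-gated cation channels best known from excitatory synapses, where they admit calcium when glutamate and a co-agonist, glycine or D-serine, are bound together. GluN1, the product of GRIN1, binds the co-agonist and is needed in every functional channel, whereas the GluN2 subunits (GRIN2A to GRIN2D) bind glutamate and set the gating of the channel. The GluN3 subunits (GRIN3A and GRIN3B) also bind glycine, lower calcium permeability when they join GluN1 and GluN2, and form glycine-gated channels with GluN1 alone. GRINA carries the family's name but is no receptor subunit. It encodes a membrane protein of the TMBIM family, related to the cell death regulator TMBIM6.

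Between 15649899 and 20140273 counts fell on genes in each library. USP47 itself was counted 1357 and 1297 times with control shRNA and 749 and 309 times with USP47 shRNA. The log2 fold change of USP47 was -1.34 ± 0.21 (standard error), with an adjusted p of 0.00362 in edgeR's quasi-likelihood test, so the targeted gene was lower in both knockdown libraries. The mesenchymal marker VIM lay between 353 and 502 CPM (the count relative to the TMM-scaled library size), while CDH2 of the same list had 3 to 10 counts. The 5 mesenchymal markers summed to between 579 and 749 CPM and the 7 epithelial markers to between 4.04 and 6.47 CPM, from CLDN4 with 41 to 77 counts down to KRT18 and KRT19 with at most 1 count in any library. Gastric mucosa markers summed to between 8.43 and 11.2 CPM. Most of this came from MUC6, with 71 to 146 counts, and CLDN18, with 43 to 66 counts, while GKN2 was at 0 in every library. The line was thus labelled gastric carcinoma but held few reads of these gastric mucosa markers.

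The promoter windows of both GluN3 genes are shown first, because these 2 paralogs differed in opposite directions. Each is the 250 bases before the RefSeq start in GRCh38.p14, with matches to the searched motifs in capitals. The window of GRIN3A is chr9:101738648-101738897 on the minus strand and that of GRIN3B is chr19:1000169-1000418 on the plus strand.
GRIN3A: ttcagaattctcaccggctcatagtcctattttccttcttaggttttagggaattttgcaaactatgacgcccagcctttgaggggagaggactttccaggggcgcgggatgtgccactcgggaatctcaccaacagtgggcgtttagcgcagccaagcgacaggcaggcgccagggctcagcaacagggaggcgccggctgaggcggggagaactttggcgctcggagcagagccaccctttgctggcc
GRIN3B: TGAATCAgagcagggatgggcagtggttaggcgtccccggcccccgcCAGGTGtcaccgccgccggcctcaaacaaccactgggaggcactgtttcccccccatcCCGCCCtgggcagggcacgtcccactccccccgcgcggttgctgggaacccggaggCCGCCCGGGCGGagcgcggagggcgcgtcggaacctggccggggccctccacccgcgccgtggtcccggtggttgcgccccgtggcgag
The GRIN3A window held 58.8% G and C and 14 CpG, near the medians of 58% and 11 CpG over 35116 RefSeq windows of this length. The GRIN3B window was richer, with 75.2% G and C and 28 CpG. Searched on both strands were the AP-1 motif TGANTCA (in 6.57% of all windows), the cyclic AMP response element TGACGTCA (1.65%), the E-box CAGGTG (17.5%), the GC box GGGCGG (42.6%), the GLI motif TGGGTGGTC (0.199%) and TTCAGCACC from the element bound by REST (0.288%). GRIN3B held 1 AP-1 match, 1 E-box and 3 GC boxes, while the GRIN3A window held no match. The window of GRIN2D, lower with USP47 shRNA like GRIN3B, held 1 GC box alone. A match describes the letters only. Windows were found for 5 of the 8 genes.

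GRIN3A was the most abundant subunit transcript in all 4 libraries, and it was the only NMDA receptor gene that was higher in both knockdown libraries and also passed the filter. The gene spans 169296 bases at chr9:104331634-104500929 on the minus strand of GRCh37. It was counted 949 and 1115 times with control shRNA and 4496 and 3118 times with USP47 shRNA. Its CPM per kilobase of exon (RPKM) was 6.89 and 6.998 with control shRNA against 26.6 and 26.8 with USP47 shRNA. The groups lay far apart, and libraries within a group were nearly equal under TMM scaling. They were less equal in the authors' TPM, at 10.0 and 8.98 with control shRNA and 38.6 and 29.0 with USP47 shRNA. USP47 itself was at 36.0 and 21.5 CPM in the knockdown libraries, and any relation of its level to GRIN3A was not tested. The mean level of GRIN3A was 6.94 ± 0.0769 RPKM with control shRNA (SD, n = 2) and 26.7 ± 0.0921 RPKM with USP47 shRNA (SD, n = 2), a ratio of 3.84. The fitted log2 fold change was 1.94 (standard error 0.13).

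The comparison over all genes gives the scale of that difference. Of 21932 genes tested, 3527 (16.1%) passed edgeR's quasi-likelihood test at an adjusted p under 0.05, of which 1430 were higher (6.52%) and 2097 lower (9.56%) with USP47 shRNA. The count ranged from 1233 without control shRNA replicate 1 to 7272 without USP47 shRNA replicate 1. GRIN3A ranked 77 by log2 fold change among the 1430 higher genes. Among the 1244 tested genes at or above its average CPM, 0 had a larger log2 fold change, though the choice of the gene used this very contrast. In level per length, GRIN3A exceeded 68.2% and 68.8% of tested genes with control shRNA and 92.3% and 91.5% with USP47 shRNA. In bulk RNA, more cells with the transcript and more transcript per cell cannot be told apart.

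GRIN3B, the paralog of GRIN3A, differed in the other direction. It lies at chr19:1000418-1009731 on the plus strand of GRCh37 and was counted 97, 130, 90 and 43 times in control shRNA libraries 1 and 2 and USP47 shRNA libraries 1 and 2, the order of every list of 4 values. The levels were 1.74 and 2.02 RPKM with control shRNA and 1.32 and 0.913 RPKM with USP47 shRNA. Both knockdown libraries were below both control libraries, and they differed from each other more than the controls did. The ratio of control to knockdown means was 1.69, and the log2 fold change was -0.73 (standard error 0.22). GRIN3A exceeded GRIN3B by 3.95-fold and 3.47-fold in RPKM with control shRNA and by 20.2-fold and 29.3-fold with USP47 shRNA. GRIN3B shares 85 exon bases with TMEM259 on the other strand, whose own log2 fold change was 0.12.

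GRIN1, which encodes the subunit that every NMDA receptor needs, was present at a low level and was lower with USP47 shRNA. The gene (chr9:140032798-140063208, plus strand, GRCh37) was counted 42 and 48 times with control shRNA and 25 and 21 times with USP47 shRNA. These counts correspond to 0.368 and 0.364 RPKM against 0.179 and 0.218 RPKM. The groups did not overlap, but the exact 95% Poisson intervals of their nearest libraries did. They were 0.268 to 0.483 RPKM in control shRNA library 2 and 0.135 to 0.333 RPKM in USP47 shRNA library 2. The summed counts were 90 (72.4 to 111) with control shRNA and 46 (33.7 to 61.4) with USP47 shRNA. Such intervals cover counting error only. The log2 fold change of GRIN1 was -0.90 (standard error 0.26), with a control to knockdown ratio of 1.85. Only 6.92% and 7.01% of tested genes had a lower RPKM than GRIN1 with control shRNA, and 3.30% and 4.69% with USP47 shRNA.

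Among the glutamate-binding GluN2 subunits, GRIN2C and GRIN2D supplied nearly all reads, and of these only GRIN2D was lower in both knockdown libraries. GRIN2D (chr19:48896925-48948188, plus strand) was counted 98, 119, 64 and 47 times. Its level was 1.13 and 1.19 RPKM with control shRNA and 0.604 and 0.643 RPKM with USP47 shRNA. The replicates of GRIN2D lay close together on both sides of this gap, with a ratio of 1.87 and a log2 fold change of -0.90 (standard error 0.19). GRIN2C (chr17:72838162-72857627, minus strand) was counted 135, 113, 165 and 127 times. Its level was 0.928 and 0.672 RPKM with control shRNA and 0.925 and 1.03 RPKM with USP47 shRNA. These ranges overlapped, and the log2 fold change of GRIN2C, 0.29 (standard error 0.20), was small beside the spread between the control libraries. GRIN2C was below GRIN2D in the control libraries, at 0.818 and 0.564 of its RPKM, and above it in the others, at 1.53 and 1.61.

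GRIN2A and GRIN2B, the subunits that predominate in the adult and the developing forebrain, were near the limit of detection. GRIN2A (chr16:9847261-10276785, minus strand) was counted 5, 5, 7 and 10 times, at 0.0277, 0.0240, 0.0317 and 0.0655 RPKM. The control sum was 10 counts (exact Poisson interval 4.80 to 18.4) and the knockdown sum 17 counts (9.90 to 27.2). For GRIN2B (chr12:13590876-14134936, minus strand) there were 4, 6, 2 and 0 counts, or 0.00867, 0.0112, 0.00353 and 0 RPKM. The 0 in USP47 shRNA library 2 has an exact 95% Poisson interval that reaches 0.00944 RPKM, and 3 counts there correspond to 0.00768 RPKM. The sums over libraries were 10 (4.80 to 18.4) and 2 (0.242 to 7.22) counts. In RPKM both knockdown libraries were above both controls for GRIN2A and below both controls for GRIN2B, by a few counts each. The difference between groups was not tested in these 2 genes, and no fold is given. Annotated long noncoding genes on the opposite strand of GRIN2B share up to 546 of its exon bases.

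GRINA (chr8:145064224-145067583, plus strand), the family member outside the receptor, was as abundant as GRIN3A became. It was counted 908, 1278, 1234 and 1240 times. The level was 21.2 and 25.8 RPKM with control shRNA and 23.5 and 34.2 RPKM with USP47 shRNA, so the groups overlapped. The log2 fold change of GRINA was 0.29 (standard error 0.18), and 0.002 without USP47 shRNA replicate 2. GRINA shares 324 exon bases with PARP10 on the other strand, and whether the counting used the strand is not given in the sources used here.

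Of the 6 genes that passed the filter, GRIN3A was higher in both knockdown libraries than in both controls, 3 (GRIN1, GRIN2D and GRIN3B) were lower in both, and 2 overlapped. Over all 21932 tested genes, 29.3% were higher without overlap, 31.7% lower without overlap, and 61.0% one or the other. With 2 libraries per group a gap between groups was thus common, and the choice of the family used this contrast. In order of mean RPKM, the control cells had GRINA, GRIN3A, GRIN3B, GRIN2D, GRIN2C, GRIN1, GRIN2A and GRIN2B, and no neighbours in that order overlapped in their library values. In the knockdown cells the order was GRINA, GRIN3A, GRIN3B, GRIN2C, GRIN2D, GRIN1, GRIN2A and GRIN2B. There GRINA and GRIN3A overlapped (23.5 to 34.2 and 26.6 to 26.8 RPKM), as did GRIN3B and GRIN2C (0.913 to 1.32 and 0.925 to 1.03 RPKM).

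The makeup of the subunit transcripts therefore shifted toward GRIN3A. The family was chosen on the difference of GRIN3A, so this shift is no separate result. The 7 subunit genes summed to 11.1 and 11.3 RPKM with control shRNA and 29.7 and 29.6 RPKM with USP47 shRNA. GRIN3A made up 62.1% and 62.0% of that sum with control shRNA and 89.7% and 90.3% with USP47 shRNA. Without GRIN3A the other subunits summed to 4.21 and 4.28 RPKM and to 3.06 and 2.87 RPKM, a lower sum to which GRIN1, GRIN2D and GRIN3B contributed while GRIN2C did not. The share of GRIN1 was 3.32% and 3.23% with control shRNA and 0.602% and 0.735% with USP47 shRNA. GRIN3A exceeded GRIN1 by 18.7-fold and 19.2-fold in RPKM in control cells and by 149-fold and 123-fold in knockdown cells. The GluN2 genes together had 2.1 and 1.9 RPKM with control shRNA and 1.56 and 1.74 RPKM with USP47 shRNA. Transcripts of all 3 subunit classes were thus counted in every library, with GluN1 the scarcest class. These are transcript levels, and no protein or channel was measured.

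**Figure D1:**
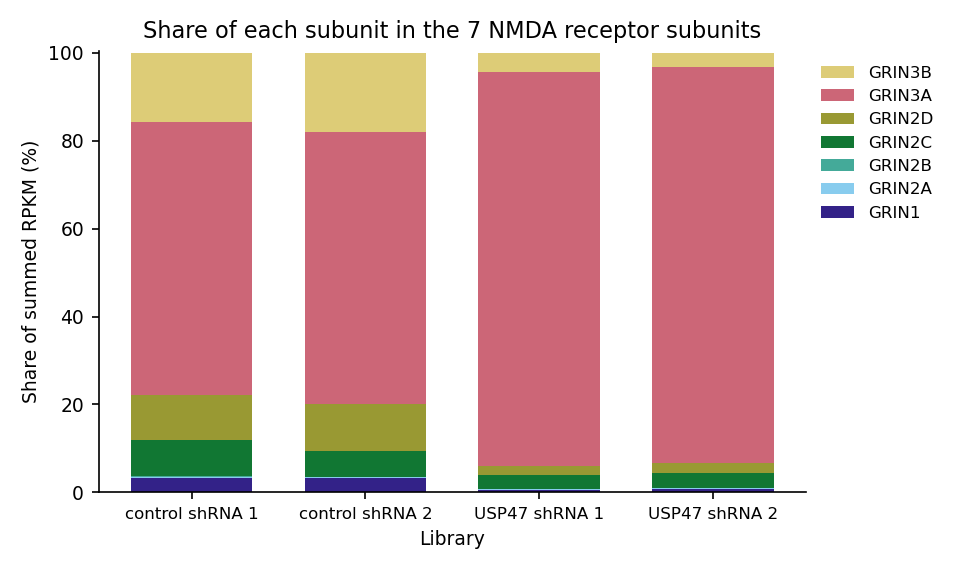
Share of each of the 7 NMDA receptor subunit genes in their summed RPKM (%), 1 stacked bar per library. GRIN3A fills 62.1% and 62.0% of the control bars and 89.7% and 90.3% of the USP47 shRNA bars. The family was chosen on the difference of GRIN3A between these groups.

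The neighbourhood of GRIN3A on chromosome 9 was examined for other genes that differed. Of 20 annotated genes within 500 kb, 6 were tested, and only PPP3R2 had an adjusted p under 0.05. PPP3R2, a testis form of the regulatory B subunit of calcineurin, lies on the same strand inside an intron of GRIN3A (chr9:104353886-104357303, minus strand) and shares 0 exon bases with it. It was counted 33 and 41 times with control shRNA and 240 and 128 times with USP47 shRNA, and its log2 fold change was 2.35 ± 0.21 (standard error; edgeR adjusted p = 0.000471). Its level of 0.574, 0.617, 3.41 and 2.63 RPKM was 8.34%, 8.82%, 12.8% and 9.84% of that of GRIN3A in the same libraries. Reads of PPP3R2 and reads of unspliced GRIN3A RNA over this stretch cannot be told apart in these counts, so PPP3R2 is no independent observation. The other 5 tested neighbours did not pass the threshold. RNF20, a ubiquitin ligase for histone H2B, had a log2 fold change of 0.11 ± 0.14 (standard error; edgeR adjusted p = 0.622), PGAP4 had 0.24, ZNF189 0.23, MRPL50 -0.23 and TMEM246-AS1 -0.39.

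The genes whose pattern across the 4 libraries was most like that of GRIN3A were found by the distance between log2 CPM values centred on the control mean, over 14480 tested genes. They were NPC1L1 (distance 0.151), the intestinal cholesterol transporter, BCL2L15 (0.156), a BCL2 family member, SFRP4 (0.163), a secreted Wnt antagonist, NOD2 (0.186), a sensor of bacterial peptidoglycan, and CRYAB (0.363), a small heat shock protein. SFRP4 was the most abundant of these, at 33.1 and 37.5 CPM with control shRNA and 130 and 126 CPM with USP47 shRNA. NPC1L1, at 1.65, 1.89, 6.59 and 7.04 CPM, shared the nearly equal replicates of GRIN3A at a much lower level. With 4 libraries, likeness says little beyond a similar fold and low spread.

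Genes listed as related to the NMDA receptor genes were mostly not higher with USP47 shRNA. The lists hold partners of the receptor, and also the relatives of GRINA and the complex of REST, a repressor of neuronal genes. Of 121 related genes other than the members, 91 were tested, of which 3 were called higher (3.30%, against 6.52% of all genes) and 20 lower (22.0%, against 9.56%). Of the 3 higher genes, 2 were in the TMBIM family and 1 in the REST complex, so no listed partner of the receptor was called higher. The 23 calls became 12 without control shRNA replicate 2 and 39 without USP47 shRNA replicate 2. Their median log2 fold change was -0.097, beside -0.0083 over all tested genes. Other glutamate receptors, auxiliary subunits and postsynaptic scaffolds contributed 36 tested genes, with 0 higher and 11 lower (30.6%) and a median of -0.165. Calls in each list below are to be read beside the shares over all genes, 6.52% higher, 9.56% lower and 16.1% in either direction.

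Both tested genes among the 4 AMPA receptor subunits, which carry fast excitatory current, were lower. GRIA4 was at 17.3 and 15.8 CPM with control shRNA and 8.56 and 7.94 CPM with USP47 shRNA, a log2 fold change of -0.998 ± 0.15 (standard error; edgeR adjusted p = 0.00324). GRIA3 was at 15.1, 14.3, 8.17 and 11.4 CPM, with a log2 fold change of -0.60 and an adjusted p of 0.0463 that became 0.0864 in the DESeq2 Wald test. Without USP47 shRNA replicate 1 its log2 fold change was -0.36. All 5 kainate receptor subunit genes and 4 of 8 metabotropic glutamate receptor genes were tested and 0 of either list passed the threshold, with medians of -0.30 and -0.25 on the log2 scale. Neither of the 2 delta receptor genes passed the filter.

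Of the 15 auxiliary subunits of glutamate receptors, 7 were tested, 4 were lower and 0 higher, with a median log2 fold change of -0.99. SUSD4, listed as an AMPA receptor partner, was at 3.66, 6.17, 0.769 and 1.18 CPM (log2 fold change -2.38, edgeR adjusted p = 0.00221). SHISA7, a receptor-associated membrane protein, was at 2.65, 3.01, 1.15 and 1.12 CPM (-1.31, edgeR adjusted p = 0.00990). Both genes were low in all libraries, and neither group reached into the other.

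Of the 21 postsynaptic scaffolds, 18 were tested, 5 were lower and 0 higher, with a median log2 fold change of -0.09. DLG3 encodes SAP102, which binds the tails of GluN2 subunits. It was at 4.60 and 3.52 CPM with control shRNA and 0.769 and 0.697 CPM with USP47 shRNA, a log2 fold change of -2.44 ± 0.29 (standard error; edgeR adjusted p = 0.000941). DLG3 was the only related gene that also passed a test against a minimum log2 fold change of 1. SHANK1, a master scaffold of the postsynaptic density, was at 2.36, 3.11, 0.962 and 1.39 CPM (-1.26, edgeR adjusted p = 0.0190), and this call was lost in the DESeq2 Wald test, where the adjusted p was 0.0679.

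Kinases and phosphatases that act on NMDA receptors had 12 of 14 genes tested, 3 lower and 0 higher, with a median log2 fold change of -0.25. CAMK2B, a subunit of the calcium and calmodulin-dependent kinase of synapses, was at 5.07, 5.00, 2.12 and 1.95 CPM (-1.30, edgeR adjusted p = 0.00401). SRC, a tyrosine kinase that phosphorylates GluN2 subunits, was at 7.43, 7.80, 3.61 and 4.88 CPM (-0.86, edgeR adjusted p = 0.0175). Of the 9 listed GluN3A interacting proteins, all were tested, 2 were lower and 0 higher, and their median was 0.004. PACSIN1, the endocytic adaptor that removes GluN3A from the membrane, was at 2.54 and 2.65 CPM with control shRNA and 1.01 and 0.697 CPM with USP47 shRNA (-1.56, standard error 0.29, edgeR adjusted p = 0.00743). MAP1B, an abundant microtubule protein, was at 1005, 892, 473 and 566 CPM (-0.87, edgeR adjusted p = 0.00617). The other 7, among them RHEB (log2 fold change 0.17), did not pass the threshold.

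Ligand supply was followed through genes for both agonists, beside the 16.1% of all tested genes that were called. Of 15 genes for the supply and uptake of glycine and D-serine, 11 were tested, and PHGDH, which starts serine synthesis, was the only one past the threshold. PHGDH was at 376, 391, 193 and 293 CPM (log2 fold change -0.66, edgeR adjusted p = 0.0374, and -0.38 without USP47 shRNA replicate 1), whereas serine racemase, SRR, had -0.26 (edgeR adjusted p = 0.396). Of 14 genes for glutamate supply and uptake, 10 were tested, 2 were lower and 0 higher. SLC1A1, a glutamate transporter, was at 3.83, 3.72, 1.83 and 1.53 CPM (-1.15, edgeR adjusted p = 0.0105). SLC7A11, which exports glutamate in exchange for cystine, was at 178, 160, 110 and 98.6 CPM (-0.69, edgeR adjusted p = 0.00829).

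The TMBIM family, to which GRINA belongs, was the list with most higher genes. Of its 6 genes 5 were tested, GRINA included, with 2 higher and 1 lower, beside 6.52% and 9.56% of all tested genes. TMBIM6, an inhibitor of cell death at the endoplasmic reticulum, was at 213 and 239 CPM with control shRNA and 427 and 536 CPM with USP47 shRNA (log2 fold change 1.09, standard error 0.16, edgeR adjusted p = 0.00227). GHITM, a mitochondrial member, was at 97.3, 97.6, 125 and 144 CPM (0.46, edgeR adjusted p = 0.0370), and its call was lost without the filter on low counts (edgeR adjusted p = 0.0539). TMBIM1 was lower, at 26.6, 30.3, 12.7 and 17.0 CPM (-0.95, edgeR adjusted p = 0.00585).

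REST, the repressor of neuronal genes, did not pass the threshold, at 75.6, 75.3, 87.4 and 75.0 CPM (log2 fold change 0.11, edgeR adjusted p = 0.610). Of the 10 genes of its complex all were tested, and HDAC1, a histone deacetylase, was the only one called, at 87.6 and 78.5 CPM with control shRNA and 115 and 134 CPM with USP47 shRNA (0.59, edgeR adjusted p = 0.0180). Neuronal markers had calls in both directions. Of 14 found in the data, 7 were tested, 1 was higher and 1 lower. The 14 summed to 42.7 and 37.3 CPM with control shRNA and 35.2 and 31.6 CPM with USP47 shRNA. Most of this came from SYT1, at 29.4, 25.6, 22.0 and 19.6 CPM, which was not called. TUBB3 had 52 to 99 counts, while STMN2, ELAVL4 and DCX were at 0 in all libraries.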

How the data were processed

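PolyA RNA-Seq libraries of HGC-27 cells, 2 per group, were assigned to control shRNA or USP47 shRNA from their labels. The authors deposited a count of reads per gene for each library, not normalized, with FPKM and TPM values derived from it by the authors. Per the submitters' processing notes and the methods, bases under a quality of 20 were trimmed, reads were mapped to hg19 with STAR 2.7.5c, and SAMtools 1.9 removed duplicates and low-quality reads. The notes also name Picard 2.23.3, featureCounts and DESeq2 1.26.0. Duplicate removal without molecular identifiers lowers high counts most and can compress their differences. The annotation and strand setting of the counting are not given in the sources used here, and the labels and methods name different library kits.

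The counts were tested in edgeR 4.0.16 (R 4.3.3) with filterByExpr, TMM scaling, a robust quasi-likelihood fit and Benjamini-Hochberg adjustment over all 21932 tested genes, at 0.05. A standard error is the fold change divided by the root of its F statistic. CPM and RPKM use TMM-scaled library sizes. Exon lengths were recovered from the ratio of deposited counts to deposited FPKM, which gave 1 length per gene in every library. TPM served only as an alternative. Totals per library limit GRIN2A and GRIN2B to a few counts, and intervals are exact Poisson intervals at 95%. Positions are from GRCh37 with GENCODE annotation, promoter windows from RefSeq on GRCh38.p14. Symbols matched 55665 of 63568 identifiers.

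The members, gene lists and tests were chosen with earlier results of these data known. The genes named were USP47, the members, up to 2 called genes with the largest fold change in each direction of each list at an average log2 CPM of at least 0, genes that overlap a member, tested genes within 500 kb of GRIN3A, and the 5 genes most like GRIN3A at an average log2 CPM of at least 1. Markers, RHEB and SRR were named after their values were seen. Alternatives were DESeq2 1.42.0, other scalings and filters, a prior count, a minimum fold change, a replicate block, TPM, and each library left out. The steps were tested on simulated data.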

Additional observations from a re-analysis of the deposited data

How the results depend on the processing

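The log2 fold change of GRIN3A, 1.94 as reported, was 1.96 with DESeq2 size factors and in the DESeq2 Wald test, 1.87 with library size alone, 1.91 with no filter, 1.93 with a minimum of 10 counts per library, and between 1.93 and 1.95 when 1 library was left out. The share of GRIN3A among subunits was recomputed only with TPM and with library size alone, which scale all genes of a library by 1 factor and cannot change it. The fitted differences ranged from -1.03 to -0.74 for GRIN1, 0.07 to 0.54 for GRIN2C, -0.97 to -0.85 for GRIN2D and -1.04 to -0.51 for GRIN3B. That of GRINA ranged from 0.002 to 0.55, with 0.002 found without USP47 shRNA replicate 2.

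Over all genes, 3527 were called as reported, 71 against a minimum log2 fold change of 1, 7419 with the replicate number as a block, and between 1233 and 7272 when 1 library was left out. The DESeq2 Wald test called 2447. Related genes called numbered 23 as reported, 1 against a minimum log2 fold change of 1, 42 with the replicate block, and between 12 and 39 when 1 library was left out. Leaving out control shRNA replicate 1 or 2 gave 1233 and 1416 calls over all genes and 14 and 12 among related genes, while leaving out USP47 shRNA replicate 1 or 2 gave 7272 and 6516 calls and 36 and 39. In these fits the lone library of a group is assumed to vary like the other group. The labels number the replicates but name no pairing, so none was assumed. Same-numbered libraries correlated at 0.213 in their deviations, which over 2 pairs only cannot settle whether they were paired. The cause of these changes was not tested. GRIN2A and GRIN2B, with at most 10 counts in a library, were not tested.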

Other observations

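Single markers of other lineages differed and were chosen after their values were seen. Over all tested genes, 16.1% were called in either direction. Among neuronal markers, ELAVL3, an RNA-binding protein of neurons, was higher at 0.884, 1.02, 2.98 and 3.83 CPM (log2 fold change 1.81 ± 0.28, standard error, with an edgeR adjusted p of 0.00324), and SNAP25, a protein of synaptic vesicle fusion, was lower at 1.24, 0.969, 0.289 and 0.139 CPM (-2.24 ± 0.47, edgeR adjusted p = 0.0121). Of 3 tested glial markers, 2 had a log2 fold change below 0 and 1 above. OLIG2 alone was called (-1.59, edgeR adjusted p = 0.00993), and MBP, at 0.68, was not. Of 4 tested epithelial markers, 3 had a log2 fold change below 0 and 1 above. EPCAM alone was called (-1.84, edgeR adjusted p = 0.0418), at no more than 12 counts per library, and CDH1, at 0.56, was not. Of 4 tested mesenchymal markers, 3 had a log2 fold change below 0 and 1 above. FN1, fibronectin, alone was called (-1.34, edgeR adjusted p = 0.000602). It was at 73.1 and 73.8 CPM with control shRNA and 26.2 and 32.0 CPM with USP47 shRNA. VIM, at -0.14, ZEB1, at -0.21, and SPARC, at 0.02, were not called. Of 3 tested blood cell markers and 2 tested gastric mucosa markers, 0 were called.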
